A study of Mus musculus with 12 samples.

Results

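The mitochondrial ribosomal protein genes were followed across high glucose and CD200Fc treatment of BV2 cells, an immortalised mouse microglial line. The genes were taken by name and annotation alone: protein-coding genes of the deposited count table whose symbol begins with Mrpl or Mrps and a number, without pseudogenes. This gave 78 of the 55487 genes in the table, 49 named Mrpl (large subunit) and 29 named Mrps (small subunit). By the place of the protein, 51 belong to the large subunit, 26 to the small subunit and 1, Mrps36, is now known as a component of the 2-oxoglutarate dehydrogenase complex. A filter on low counts left 19182 genes to test, among them 77 of the 78.

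The design crossed 2 glucose levels with 2 treatments, with 3 libraries in each of 4 groups: normal glucose (NG), normal glucose with CD200Fc at 50 ng/mL (NG+CD200Fc), high glucose (HG) and high glucose with CD200Fc (HG+CD200Fc). CD200Fc joins the ligand CD200 to an antibody Fc part and is used to engage the inhibitory CD200 receptor of myeloid cells. The labels give neither the glucose concentrations nor the exposure time, and list no group with an Fc control protein or an osmotic control. Nothing in them ties the 3 libraries of a group to independent cultures, and the p-values therefore reflect spread among libraries that could be purely technical. All groups rest on this 1 line. The source label says BV2, whereas the treatment text describes cells sorted from mouse retina. The microglial gene Csf1r lay between 870.3 and 1053 CPM (counts scaled to a common library size) in all 12 libraries. The 8 microglial markers summed to 2212 to 2518 CPM per library. From NG to HG 3 of the 8 (Aif1, Itgam and Ptprc) rose and 2 (Trem2 and Cx3cr1) fell, and Cx3cr1 was low throughout at 0.709 to 4.22 CPM. Markers of other cells were few but not all absent. The 4 neuronal markers summed to at most 0.909 CPM, with 173 reads of Tubb3 and 2 of Snap25 in all, and the 4 endothelial markers to at most 5.89 CPM, with Pecam1 higher in HG than in NG. Of photoreceptor genes, Sag had 743 reads (1.35 to 3.33 CPM) and Opn1sw 236. The part of such cells in the results was not tested.

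Library totals were 21454087 to 31905649 counts. Ribosomal RNA genes took 1.49% of the counts in the second HG library, which stood apart, and no more than 0.119% in any of the other 11. Counts of the mitochondrial ribosomal genes that turn on it are given with and without it. The sums and the related gene lists include it throughout.

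The mitochondrial ribosome is built from RNA made inside the organelle and from proteins encoded in the nucleus, made in the cytosol and imported. It translates only the few membrane subunits of the respiratory chain and ATP synthase that mitochondrial DNA still encodes. Part of its proteins descend from the bacterial ribosome, and the rest were added during the evolution of mitochondria. Promoters of such nuclear genes are known to hold sites for the Ets family factor GABP, for NRF1 and for YY1.

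Promoter windows are shown because most of these genes moved in the same direction from NG to HG. RefSeq (GRCm38.p6) gave windows from 250 bases before to 50 bases after a start site for 69 of the 78 genes, 75 windows in all. Each of 6 motifs was searched on both strands. The Ets motif CCGGAAG stood in 34.7% of the 75 windows, against 16.4% of the 14034 windows of genes tested and 8.86% of all 32851 windows. The NRF1 motif (GCGCA and GCGC with any 1 base between) stood in 17.3%, against 9.12% and 4.6%. The YY1 motif AAGATGGCG stood in 10.7%, against 2.74% and 1.4%. The TATA box TATAAA stood in 6.67% against 7.98% of windows of genes tested, the E-box CACGTG in 9.33% against 9.46%, and CCAAT in 40% against 37.8%. The Ets and YY1 motifs overlapped in 0 of the 2 genes that held both. A match is a run of letters and not a shown binding site.

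The 5 genes with the lowest HG against NG change among those with an Ets, NRF1 or YY1 motif upstream of annotated exons are printed 5′ to 3′ on the strand of the gene, 120 bases each, with the motif in capitals. Mrpl34 lies on the plus strand at chr8:71464806-71464925, Mrpl12 on the plus strand at chr11:120484493-120484612, and Mrpl17 on the minus strand at chr7:105811218-105811337. Mrps22 lies on the minus strand at chr9:98601680-98601799 and Mrpl9 on the plus strand at chr3:94443198-94443317. Mrpl34, Mrpl17 and Mrps22 show the Ets motif, and Mrpl12 and Mrpl9 show the NRF1 motif.
Mrpl34: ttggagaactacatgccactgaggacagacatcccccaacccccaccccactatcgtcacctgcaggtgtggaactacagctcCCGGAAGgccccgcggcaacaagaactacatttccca
Mrpl12: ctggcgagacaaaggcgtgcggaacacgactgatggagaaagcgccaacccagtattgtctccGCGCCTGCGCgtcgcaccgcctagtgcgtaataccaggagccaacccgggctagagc
Mrpl17: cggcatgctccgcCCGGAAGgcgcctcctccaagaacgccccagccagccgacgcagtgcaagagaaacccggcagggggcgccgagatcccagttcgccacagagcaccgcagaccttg
Mrps22: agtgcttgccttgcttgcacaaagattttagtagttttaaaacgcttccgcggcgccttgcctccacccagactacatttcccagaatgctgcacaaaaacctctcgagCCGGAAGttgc
Mrpl9: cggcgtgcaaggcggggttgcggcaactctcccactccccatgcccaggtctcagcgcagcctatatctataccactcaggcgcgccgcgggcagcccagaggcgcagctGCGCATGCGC

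Levels between genes were compared per kilobase of exon, as RPKM averaged over the 12 libraries. The 50 large subunit genes tested ranged from 1.87 to 110.8 RPKM with a median of 14.0, and the 26 small subunit genes from 2.71 to 58.0 with a median of 9.79. Mrpl12, the counterpart of the bacterial stalk protein L7/L12 that contacts translation factors, was the highest of all at 111 RPKM. It was followed in the large subunit by Mrpl2 at 47.9, Mrpl4 at 47.0 and Mrpl34 at 44.1 RPKM, whose ranges over the libraries overlapped. In the small subunit the highest were Mrps21 at 58.0, Mrps7 at 36.4, Mrps24 at 35.3 and Mrps23 at 34.2 RPKM. The lowest were Mrpl47 at 1.87, Mrpl48 at 2.02 and Mrpl32 at 3.87 in the large subunit, and Mrps35 at 2.71, Mrps25 at 3.41, Mrps31 at 4.89 and Mrps6 at 5.27 in the small one. Mrpl53 was not tested. It had 2 reads in the first NG+CD200Fc library and 0 in the other 11, and 88% of its exon bases lie within the same-strand gene Gm42688, so its reads could not be assigned with confidence.

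**Figure D1:**
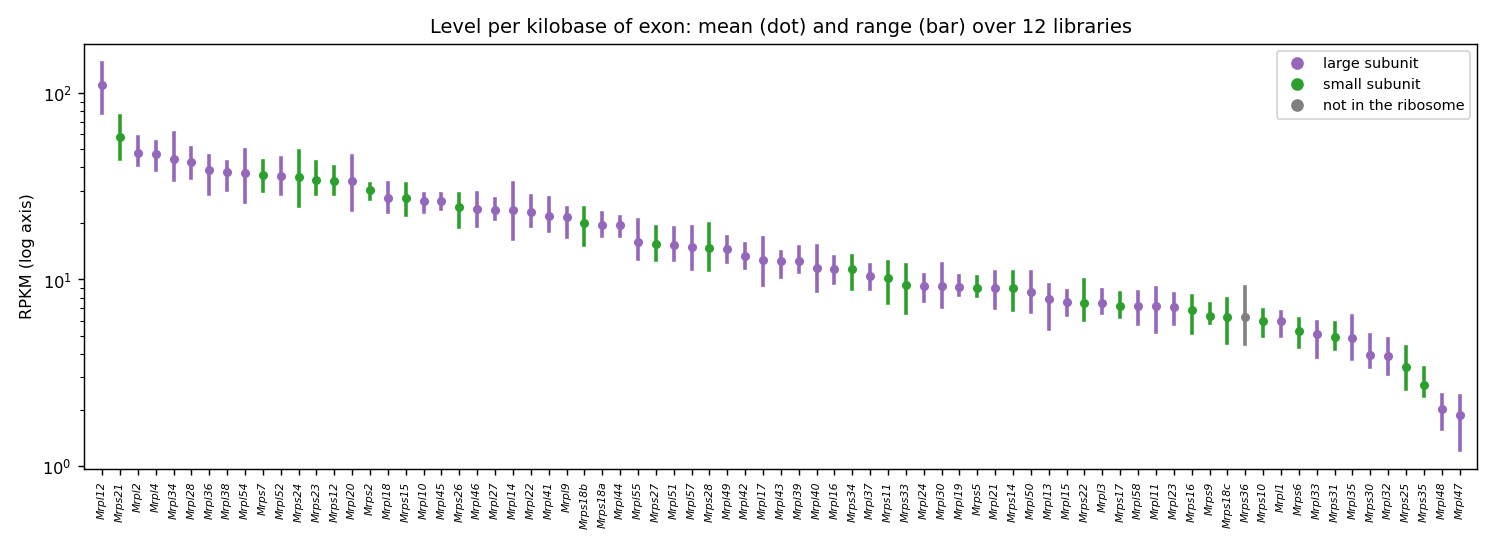
Level of each of the 77 genes tested, in RPKM on a log axis; dots are means and bars the range over 12 libraries, coloured by subunit. Mrpl12 stands highest at 111 and Mrpl47 lowest at 1.87 RPKM, both of the large subunit, and the small subunit genes lie between 2.71 and 58.0 RPKM.

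The sum of all 78 genes was lower in both high glucose groups. It was 3711, 3356 and 3495 CPM in the NG libraries and 3152, 2656 and 2862 CPM in the HG libraries. With CD200Fc it was 3226, 3120 and 3451 CPM in normal glucose and 2906, 2825 and 2897 CPM in high glucose. All 3 HG libraries lay below all 3 NG libraries, and all 3 HG+CD200Fc libraries lay below all 3 NG+CD200Fc libraries. The means were 3520 ± 179 (NG), 3265 ± 169 (NG+CD200Fc), 2890 ± 249 (HG) and 2876 ± 44.2 CPM (HG+CD200Fc; SD, n = 3 each). The summed level changed by -17.9% from NG to HG and by -11.9% from NG+CD200Fc to HG+CD200Fc. In a bulk library, fewer cells with a transcript and less of it per cell cannot be told apart.

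Both subunits changed by a similar share. The large subunit sum was 2407 ± 131 CPM in NG and 1964 ± 175 in HG (-18.4%), and the small subunit sum was 1104 ± 49.2 and 917 ± 72.4 CPM (-16.9%; SD, n = 3). With CD200Fc the changes were -12.5% and -10.6%. The cytosolic ribosomal protein genes changed by -15.8% without and -15.3% with CD200Fc, and nuclear respiratory chain genes by -15.7% and -12.2%. In HG, replicate 1 was the highest and replicate 2, the library with the most ribosomal RNA, the lowest in each of these sums.

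**Figure D2:**
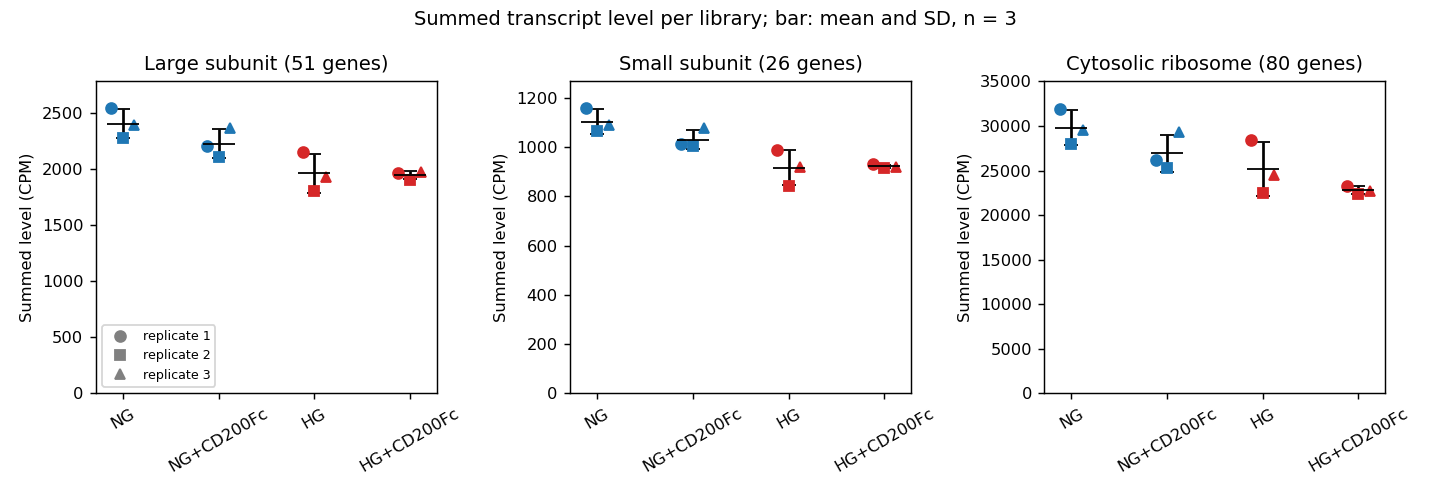
Summed CPM per library for the large subunit genes, the small subunit genes and the cytosolic ribosomal protein genes, with mean and SD (n = 3) per group; the axes start at 0. In the left and middle panels every HG library lies below every NG library, and the 3 HG+CD200Fc libraries lie close together.

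High glucose without CD200Fc was compared first. Of the 77 genes tested, 49 fell and 0 rose at an adjusted p under 0.05 (edgeR quasi-likelihood test, Benjamini-Hochberg over all genes tested). Over all 19182 genes, 12.9% fell and 11.7% rose. The log2 fold change was negative for 74 of the 77, with a median of -0.28 and a range of -0.58 to 0.11, beside a median of 0.02 over all genes tested. The falls were small for each gene, and 49 of the 77 had all HG libraries below all NG libraries, against 19.8% of all genes tested. Without HG replicate 2 the count was 28 (9.26% of all genes tested fell), and without NG replicate 1 it was 32 (9.42%). The medians were -0.23 and -0.24. Some signs of RNA quality moved with glucose as well. Ribosomal RNA genes took 0.0698% to 1.49% of counts in the 6 high glucose libraries and 0.053% to 0.0599% in the 6 normal glucose libraries. Of the 4 noncoding RNAs on the quality list Malat1 and Neat1 rose from NG to HG, Rn7sk did not pass and Rmrp had 0 reads. Their sum was 10805 to 12479 CPM in HG and 8935 to 10148 in NG. With CD200Fc the ranges overlapped, at 8294 to 9166 CPM in high glucose and 7677 to 8697 in normal glucose. The part of RNA quality in the fall was not tested.

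The count was spread over both subunits and both origins. In the large subunit 34 of 50 tested genes fell (median -0.28), and in the small subunit 15 of 26 (median -0.26). Of large subunit genes with a bacterial counterpart 22 of 30 fell, and of those without one 11 of 19. In the small subunit these were 9 of 16 and 6 of 9. A tested gene of each subunit was placed in neither class.

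**Figure D3:**
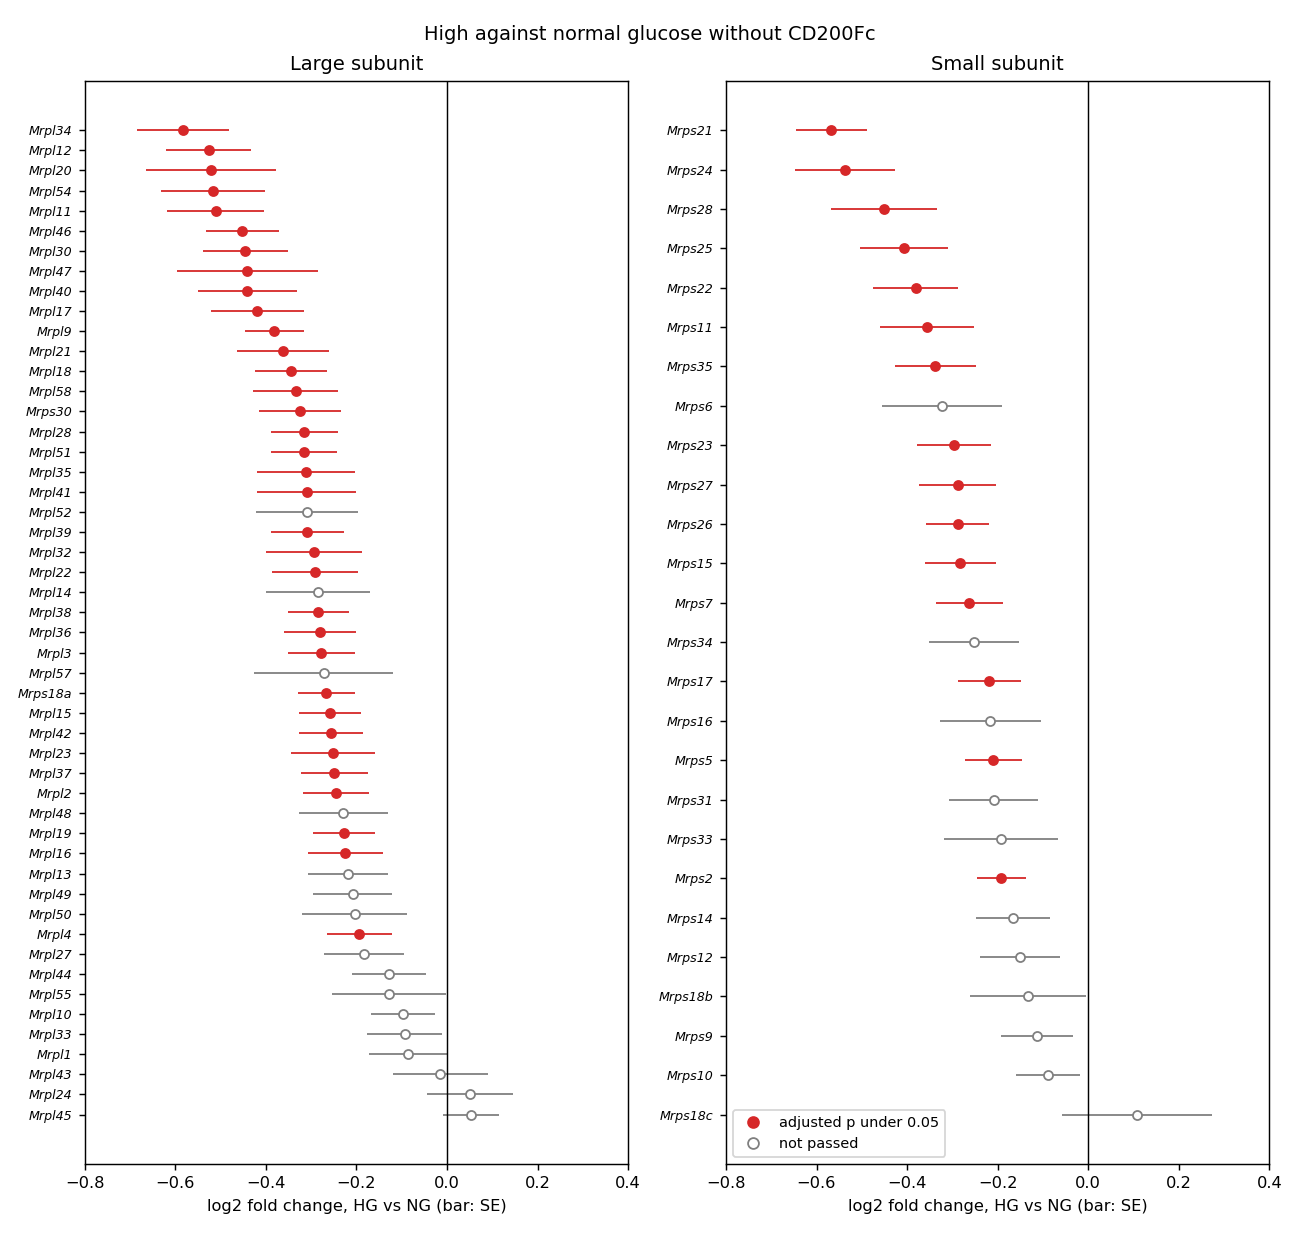
Log2 fold change from NG to HG with its standard error for the tested large (left) and small (right) subunit genes, ordered by value; filled red points passed an adjusted p of 0.05. Most points lie between -0.58 and -0.1, and the 3 above 0 (Mrpl24, Mrpl45 and Mrps18c) did not pass.

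Among large subunit genes the largest fall was that of Mrpl34, the counterpart of a short bacterial protein (ENSMUSG00000034880, chr8:71464959-71465747, plus strand). It was at 37.1, 30.2 and 31.4 CPM in NG and at 24.4, 20.7 and 20.6 CPM in HG, with no overlap between groups. Its log2 fold change was -0.58 ± 0.101 (SE; adjusted p = 0.000106). Mrpl20, also with a bacterial counterpart, was at 76.8, 63.6 and 65.5 CPM in NG and 59.6, 39.2 and 44.4 CPM in HG. The groups did not overlap, and the first HG library was the nearest to NG. Its log2 fold change was -0.52 ± 0.144 (adjusted p = 0.0229), and it lost the call without NG replicate 1 or HG replicate 3. It lost it also when only NG and HG were fitted.

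The next groups follow textbook positions in the ribosome. Their genes were chosen after the values were seen and may not be all the genes at each position. At the stalk, which recruits elongation factors, 3 of 4 tested genes fell. Mrpl12 (ENSMUSG00000039640, chr11:120484613-120489065, plus strand) was at 221, 187 and 194 CPM in NG and at 163, 119.5 and 135 CPM in HG, again with no overlap. Its log2 fold change was -0.53 ± 0.0939 (adjusted p = 0.000707). Mrpl11, which binds the RNA at the stalk base, changed by -0.51 ± 0.107 (adjusted p = 0.0008), and the nearby Mrpl54 by -0.52 ± 0.115 (adjusted p = 0.00224). Mrpl10, the protein that anchors Mrpl12, did not pass. Its NG values were 48.7, 46.0 and 49.0 CPM and its HG values 45.4, 41.5 and 47.4 CPM, which overlap (-0.10 ± 0.0708, adjusted p = 0.343). The median of the 4 was -0.51.

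In the central protuberance, the crest of the large subunit, 4 of the 5 chosen genes fell, with a median of -0.33. Mrpl46 was at 41.1, 35.7 and 40.9 CPM in NG and at 29.2, 29.5 and 27.3 CPM in HG (-0.45 ± 0.0809, adjusted p = 0.000149). The HG values were close to each other and all below NG. Mrpl40 changed by -0.44 ± 0.109 (adjusted p = 0.00354) and Mrpl38 by -0.28 ± 0.0667 (adjusted p = 0.00235). Mrpl58, a peptidyl-tRNA hydrolase of the large subunit that belongs to a family of ribosome rescue factors, changed by -0.33 ± 0.094 (adjusted p = 0.0097). That call was lost without NG replicate 1 or HG replicate 2. Mrpl48 did not pass (-0.23, adjusted p = 0.0901).

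Around the polypeptide exit tunnel, through which the new chain leaves, 3 of the 5 chosen genes fell, with a median of -0.25. These were Mrpl22 (-0.29, adjusted p = 0.0257), Mrpl23 (-0.25, adjusted p = 0.0488) and Mrpl47 (-0.44, adjusted p = 0.0387). The calls of Mrpl22 and Mrpl47 were both lost without NG replicate 1 or HG replicate 3, that of Mrpl22 without HG replicate 2 and that of Mrpl47 without NG replicate 3 or HG replicate 1. Mrpl23 was the least stable of the 3, passing in 12 of 21 alternative fits: it was lost when any 1 NG library, HG replicate 2 or 3, or HG+CD200Fc replicate 1 or 3 was left out, and with upper quartile scaling or a stricter filter. Mrpl45, which links the tunnel exit to the inner membrane, was at 69.8, 64.5 and 71.5 CPM in NG and at 74.8, 67.8 and 71.1 CPM in HG. These groups overlap, and the log2 fold change was 0.05 ± 0.0619 (adjusted p = 0.576). Mrpl24 was at 0.05 (adjusted p = 0.746), and 26.3% of its exon bases overlap the opposite-strand gene Rrnad1.

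In the small subunit, Mrps21 had the smallest p of the 77. Mrps21 (ENSMUSG00000054312, chr3:95862634-95871519, minus strand), a counterpart of bacterial S21, was at 55.9, 53.3 and 54.1 CPM in NG and 40.6, 32.6 and 36.9 CPM in HG. The log2 fold change was -0.57 ± 0.0792 (adjusted p = 6.02e-06), and the 2 groups were far apart relative to their spread. Mrps24, a head protein near the mRNA entry, was at 71.4, 60.0 and 62.3 CPM in NG and at 46.0, 36.1 and 51.5 CPM in HG (-0.54 ± 0.111, adjusted p = 0.00207). Of the 5 genes chosen for the head of the small subunit, Mrps24 and Mrps7 (-0.26, adjusted p = 0.0104) passed. Mrps7 did not pass without NG replicate 1 or HG replicate 2. The others of the 5, Mrps9 (-0.11, adjusted p = 0.322), Mrps10 (-0.09, adjusted p = 0.394) and Mrps14 (-0.17, adjusted p = 0.149), did not pass in the main fit. Mrps28 (-0.45 ± 0.117, adjusted p = 0.00525), Mrps25 (-0.41 ± 0.0969, adjusted p = 0.00264) and Mrps22 (-0.38 ± 0.0946, adjusted p = 0.00368) were the next lowest in the subunit. Of the exon bases of Mrps25, 69.8% overlap its neighbour Nr2c2.

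Some genes carry a name that does not match their place. Mrps30 and Mrps18a encode proteins of the large subunit despite the letter in their symbols. Mrps30 was at 29.5, 26.3 and 33.4 CPM in NG and at 24.3, 23.7 and 23.3 CPM in HG (-0.32 ± 0.0911, adjusted p = 0.00955), and did not pass without NG replicate 3. Mrps18a changed by -0.27 ± 0.0636 (adjusted p = 0.00269). Its paralogs in the small subunit did not pass: Mrps18b was at -0.13 (adjusted p = 0.5) and Mrps18c at 0.11 (adjusted p = 0.686). Mrps18b was at 50.4, 32.05 and 38.6 CPM in the HG libraries, a spread wider than the gap to NG, and passed without HG replicate 1. Mrps36 was at -0.13 (adjusted p = 0.655).

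**Figure D4:**
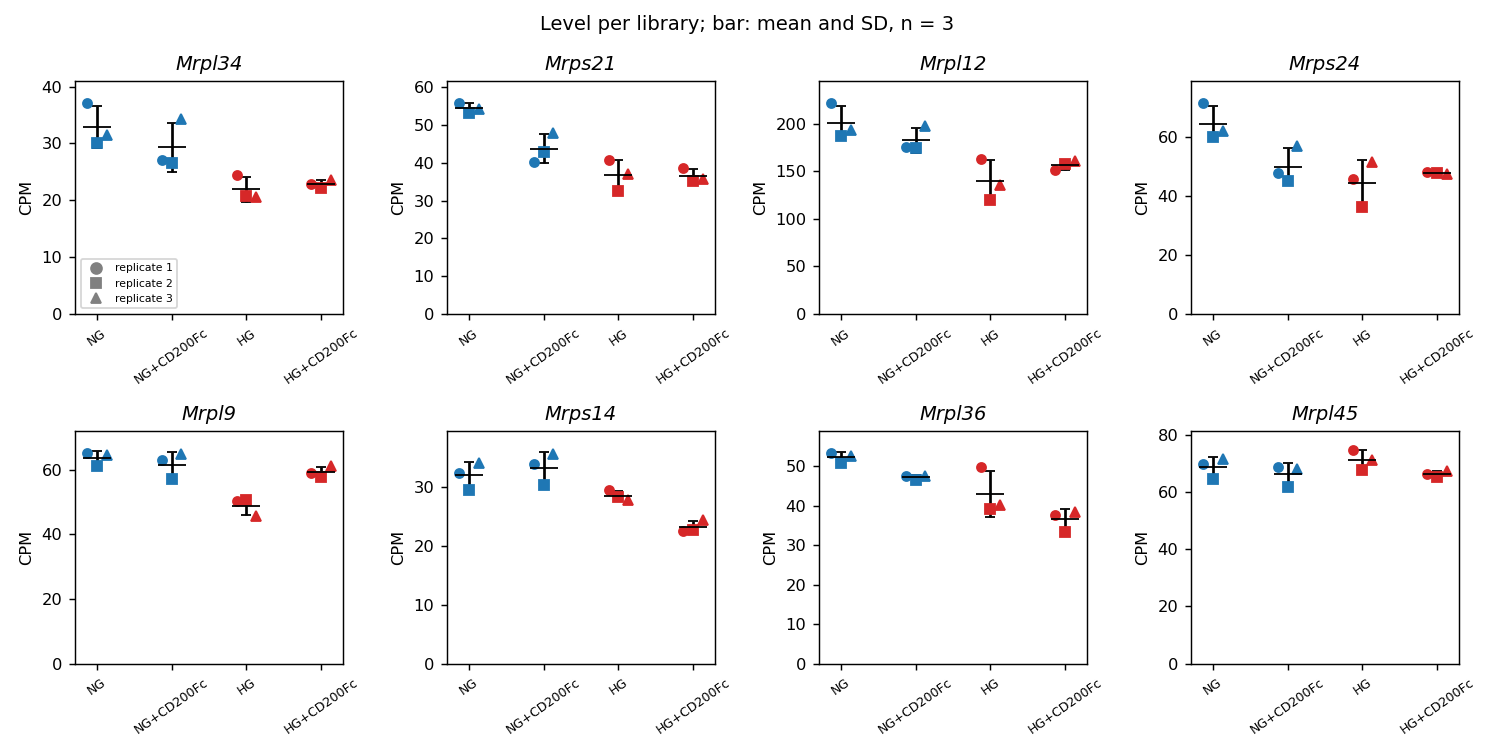
CPM per library for 8 genes, with mean and SD (n = 3) per group, axes from 0 and symbols for the replicate number. Mrpl34, Mrps21, Mrpl12 and Mrps24 are lower in HG than in NG, Mrpl9 is low in HG alone of the 4 groups, Mrps14 is lowest in HG+CD200Fc, and the NG and HG values of Mrpl45 overlap.

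The glucose comparison in the presence of CD200Fc uses the other 6 libraries. Of 77 genes 18 fell and 0 rose, beside 3.65% and 4.65% of all genes tested. The log2 fold change was negative for 75, with a median of -0.21, beside -0.000555 over all genes tested. In 46 of the 77 all HG+CD200Fc libraries lay below all NG+CD200Fc libraries, against 14.2% of all genes tested. In the large subunit 12 of 50 fell and in the small subunit 6 of 26. This count rested on single libraries, and the share of all genes tested that fell moved with it. It was 2 without NG+CD200Fc replicate 3 (0.573% of all genes) or without HG+CD200Fc replicate 2 (0.422%). It was 6 without HG+CD200Fc replicate 3 (1.18%), 7 without NG+CD200Fc replicate 1 (1.51%) and 28 without NG+CD200Fc replicate 2 (5.8%). The median then lay between -0.25 and -0.15 in all 12 leave-one-out fits.

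Of the 8 genes with the lowest value among those that passed, Mrpl34 was the only one also among the 8 lowest without CD200Fc. Mrps28, related to bacterial S1, was at 13.1, 12.7 and 15.5 CPM in NG+CD200Fc and 9.75, 9.66 and 8.85 CPM in HG+CD200Fc. The groups did not overlap (-0.55 ± 0.118, adjusted p = 0.00605), but the call was lost without NG+CD200Fc replicate 3. Mrps14 (ENSMUSG00000058267, chr1:160195215-160202170, plus strand), a head protein, was at 33.9, 30.4 and 35.5 CPM in NG+CD200Fc and 22.4, 22.6 and 24.3 CPM in HG+CD200Fc. Its log2 fold change was -0.53 ± 0.0834 (adjusted p = 0.00126), and it alone of the 18 passed in each of the 21 alternative fits. Mrps33 was at 17.4, 17.1 and 18.2 CPM in NG+CD200Fc and 14.4, 11.01 and 11.3 CPM in HG+CD200Fc (-0.52 ± 0.129, adjusted p = 0.0141). The others among the 8 lowest were Mrpl14 (-0.41), Mrpl32 (-0.40), Mrpl30 (-0.39), Mrpl36 (-0.37) and Mrpl34 (-0.36), with adjusted p between 0.00641 and 0.0327. Mrps33, Mrpl14, Mrpl32, Mrpl30 and Mrpl34 each lost the call without NG+CD200Fc replicate 3. Without HG+CD200Fc replicate 2 these 5 and Mrpl36 lost it, and without HG+CD200Fc replicate 3 all but Mrpl30 and Mrpl36. Mrpl14 and Mrpl32 lost it also without NG+CD200Fc replicate 1, and Mrpl14 and Mrpl34 without HG+CD200Fc replicate 1.

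The 2 glucose comparisons share no library. In all, 12 genes fell in both: Mrpl16, Mrpl30, Mrpl32, Mrpl34, Mrpl36, Mrpl40, Mrpl46, Mrpl51, Mrps21, Mrps22, Mrps23 and Mrps28. They were 24.5% of the 49, near the 23.4% of all 77 that fell with CD200Fc. They were 66.7% of the 18, near the 63.6% of all 77 that fell without it. The share of all genes tested that fell in both was not counted. A further 6 passed with CD200Fc and not without it: Mrpl1, Mrpl13, Mrpl14, Mrpl48, Mrps14 and Mrps33. The value was negative in both for 72 genes. Of all 19182 genes tested, 9151 were negative without CD200Fc and 9603 with it. Across the 77 genes the 2 sets of values had a Spearman correlation of 0.29 and a Pearson correlation of 0.25, as a description over genes that share libraries and are not independent. The order of the genes was thus only loosely shared, although nearly all lay below 0 in both. None of the 4 tested stalk genes passed with CD200Fc, where their median was -0.19, and 3 of the 5 chosen central protuberance genes did.

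**Figure D5:**
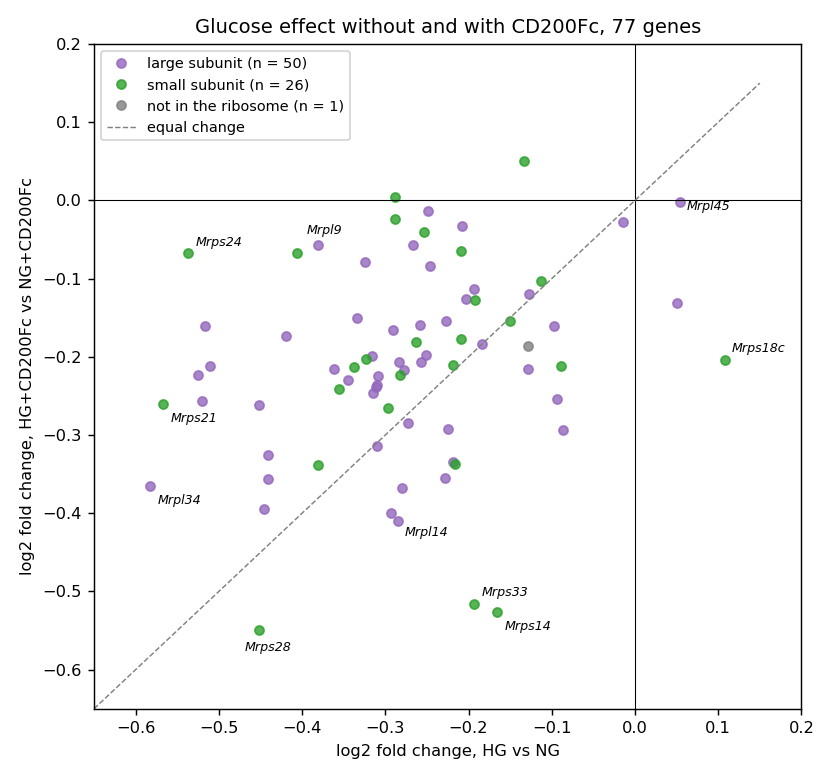
Log2 fold change of high against normal glucose for 77 genes, without CD200Fc (x) and with it (y); colours mark the subunit and the dashed line equal change. The points lie mostly below and left of 0, with Mrps24 and Mrpl9 near 0 on the y axis and Mrps14 and Mrps33 lower on y than on x.

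CD200Fc in normal glucose gave no call. Of the 77 genes 0 passed in either direction in edgeR, DESeq2 and limma voom. Of all genes tested 0% passed in edgeR, and 1 gene did in limma voom. At an unadjusted p under 0.05 there were 10, beside 1147 of all 19182 genes tested, and the smallest adjusted p was 0.816. The value was negative for 67 genes, with a median of -0.10. Over all 19182 it was negative for 9608, with a median of -0.00033. Mrps24 had 47.9, 45.2 and 57.0 CPM with CD200Fc against 71.4, 60.0 and 62.3 CPM without it, which do not overlap (-0.37 ± 0.11, adjusted p = 0.816). It passed when no filter on low counts was applied. Mrps21 was at 40.3, 43.0 and 47.9 CPM against 55.9, 53.3 and 54.1 CPM (-0.31, adjusted p = 0.816), and Mrpl22 was at -0.26. In 8 of the 77 the NG+CD200Fc libraries all lay below NG, against 6.16% of all genes tested.

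CD200Fc in high glucose moved few of the genes. In all, 3 fell and 1 rose, beside 8.3% and 9.46% of all genes tested, and the median was -0.01 (-0.02 to 0.00485 over the 9 other fits, so its sign is not settled). With the replicate number as a block 7 fell (9.56% of all genes tested fell), and with the length and GC trend removed 6 fell (10.4%). This comparison shares the HG libraries with that of HG against NG. The gene that rose was Mrpl9 (ENSMUSG00000028140, chr3:94443318-94451130, plus strand), a counterpart of bacterial L9. It was at 50.3, 50.7 and 45.6 CPM in HG and at 59.0, 57.8 and 61.0 CPM in HG+CD200Fc, with no overlap (0.28 ± 0.0649, adjusted p = 0.00278). The call held in all 21 alternative fits.

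The 3 that fell were Mrps14, Mrpl14 and Mrpl36. Mrps14 was at 29.4, 28.3 and 27.7 CPM in HG and at 22.4, 22.6 and 24.3 CPM in HG+CD200Fc (-0.30 ± 0.084, adjusted p = 0.0115). Mrpl14, which lies at the contact between the subunits, was at 25.6, 20.8 and 20.2 CPM and at 17.1, 19.2 and 15.7 CPM (-0.36 ± 0.119, adjusted p = 0.0346). Mrpl36, a short protein with a bacterial counterpart, was at 49.6, 39.1 and 40.2 CPM and at 37.6, 33.4 and 38.5 CPM (-0.24 ± 0.0801, adjusted p = 0.0386). In 9 of the 77 all HG+CD200Fc libraries lay below HG and in 1 all lay above, against 16% and 15.3% of all genes tested. For none of the 3 did the groups overlap, although Mrpl36 came close. Without HG replicate 1 none of the 3 passed and a second gene, Mrpl12, rose, and without HG replicate 2 the count of falls was 5 (8.04% of all genes tested fell). Without NG replicate 3 or NG+CD200Fc replicate 1 only Mrps14 did. Mrpl36 moved to -0.11 without HG replicate 1, and Mrpl14 to -0.24. Mrpl14 also lost the call without HG+CD200Fc replicate 1 or 3, and Mrpl36 without NG replicate 1 or 2 or HG+CD200Fc replicate 1 or 2.

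Whether the glucose change differed with CD200Fc was tested by the interaction term, the change with CD200Fc minus the change without it. Of 77 genes 1 passed, Mrpl9, beside 3.62% (higher) and 3.58% (lower) of all genes tested. Mrpl9 was at 65.1, 61.3 and 64.6 CPM in NG and at 62.9, 57.2 and 64.8 CPM in NG+CD200Fc. It changed by -0.38 ± 0.0646 from NG to HG (adjusted p = 7.7e-05) and by -0.06 ± 0.0643 with CD200Fc (adjusted p = 0.646), and the difference was 0.32 ± 0.0911 (adjusted p = 0.0267). The call was lost without NG replicate 1 or 3, NG+CD200Fc replicate 2, HG replicate 3 or HG+CD200Fc replicate 3, where the difference was 0.28 to 0.32. The next by p were Mrps14 (-0.36 ± 0.117, adjusted p = 0.0604) and Mrps24 (0.47 ± 0.157, adjusted p = 0.0919). The term was above 0 for 53 genes, with a median of 0.07, beside 9396 of all 19182 genes tested and a median of -0.00819. Without HG replicate 2 the median was 0.02, and the term was below 0 for 33 genes in place of 24. So the smaller count of falls with CD200Fc does not by itself show a smaller fall for any gene other than Mrpl9.

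The other parts of mitochondrial translation are given beside the 12.9% of all genes tested that fell and the 11.7% that rose from NG to HG; a difference between lists was not tested. Of 5 further ribosome proteins outside the naming rule, 3 fell and 0 rose (median -0.31): Gadd45gip1 (-0.41), Aurkaip1 (-0.33) and Chchd1 (-0.31). Of 14 translation factors 3 fell and 1 rose (median -0.10). Tsfm, an elongation factor that reloads the tRNA carrier, changed by -0.40, Guf1 by -0.37 and Gfm1, which moves the ribosome along, by -0.19, while the initiation factor Mtif2 changed by 0.30. Of 32 assembly and rRNA factors 10 fell and 1 rose (median -0.12), with C1qbp at -0.27, Grsf1 at -0.30 and Noa1 at -0.29 as the 3 smallest p. Of 20 mitochondrial tRNA synthetases 3 fell and 0 rose (median -0.00334). These were Mars2, Yars2 and Ears2, a share near that of all genes. Lars2 had 54.7, 1656 and 66.4 CPM in HG, the second value again from the library rich in ribosomal RNA, and 42.7, 44.6 and 45.0 CPM in NG, and did not pass (adjusted p = 0.0646).

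The genes for the template and its regulators are read against the same shares. Of 14 genes for transcription and upkeep of mitochondrial DNA 2 fell, Mgme1 (-0.40) and Top1mt (-0.22), and 1 rose, the protease gene Lonp1 (0.23). Of the 13 protein genes of mitochondrial DNA 1 fell, mt-Nd1 (-0.28, adjusted p = 0.0409), with a median of -0.15. With CD200Fc 5 fell and 0 rose (median -0.29), beside 3.65% of all genes that fell there. Of 9 regulators tested 0 passed in HG against NG. From NG+CD200Fc to HG+CD200Fc 3 of the 9 rose and 0 fell, beside 4.65% and 3.65% of all genes tested. In HG+CD200Fc against HG, where 9.46% of all genes rose, 4 of the 9 did: Nrf1 (0.28), Yy1 (0.26), Ppargc1b (0.34) and Pprc1 (0.54).

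The ribosomal RNAs of the organelle, mt-Rnr1 and mt-Rnr2, are depleted by the library method and cannot stand for the amount of ribosome. Their reads turned on 1 library. In HG, mt-Rnr1 was at 15.8, 189 and 11.9 CPM and mt-Rnr2 at 14.5, 232 and 11.1 CPM, the second library being the one rich in ribosomal RNA. In the NG libraries both lay between 9.86 and 12.7 CPM. Neither passed.

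The cytosolic ribosomal protein genes and the nuclear respiratory chain genes gave similar shares from NG to HG only. There 42 of 78 and 45 of 78 tested fell and 0 rose, beside 49 of 77, with medians of -0.27 for each. With CD200Fc 34 of 78 (43.6%) and 27 of 78 (34.6%) fell, larger shares than 18 of 77 (23.4%). The medians there were -0.29 and -0.26. For the mitochondrial ribosomal proteins the medians were -0.28 from NG to HG and -0.21 with CD200Fc. From HG to HG+CD200Fc 12 of 78 and 14 of 78 fell (medians -0.17 and -0.15), beside 3 of 77 (median -0.01). In that comparison 0 cytosolic, 1 respiratory chain and 1 mitochondrial ribosomal gene rose. A difference between the lists was not tested.

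Transcript length moved with the comparisons too. Over 14497 genes the Spearman correlation of log2 fold change with exon length was 0.18 from NG to HG and 0.24 with CD200Fc, and the median exon length was 2533 bases in the genes described here against 3067 in all. After a trend on exon length and GC content was removed, the count from NG to HG was again 49, while the share of all genes that fell went from 12.9% to 16.4%.

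Genes of the mitochondrial ribosome often share a start region with another gene. Of the 78, 33 (42.3%) had an opposite-strand protein-coding gene starting within 1000 bases, against 16.4% of 12832 protein-coding genes tested, and the median distance was 128 bases. Of those 33 genes 19 fell from NG to HG. Of their 31 tested partners 6 fell and 4 rose, with a median of -0.03, beside 12.9% and 11.7% of all genes tested. The 6 include Mrps11 and Mrpl46, which are themselves among the 78. Whether neighbours changed together was not tested. Mrpl46 and Mrps11 (-0.36, adjusted p = 0.0129) are each other's partner, 412 bases apart, and both fell; Mrps11 did not pass without NG replicate 3 or HG replicate 2. Mrpl36 and Ndufs6, Mrpl32 and Psma2, Mrps27 and Ptcd2, and Mrpl18 and Tcp1 also both fell. Of these, Mrpl36, Mrpl32 and Mrps27 lost the call without HG replicate 2, Mrpl32 and Mrps27 without NG replicate 1, and Mrpl32 without NG replicate 3 or HG replicate 3. Mrpl30 (-0.45) and its partner Mitd1 (0.42, adjusted p = 0.0303) changed in opposite directions, as did Mrpl41 (-0.31) and Pnpla7 (0.51, adjusted p = 9.04e-07). Mrpl41 lost the call when any 1 NG library, or HG replicate 2 or 3, was left out.

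Exons overlapped another gene in 33 of the 78, and the sources used here give no strand setting for the counting, so reads of such pairs may be mixed. Pseudogene copies may share reads with some of these genes too, which was not tested. Of the 45 without overlap 31 fell from NG to HG, with a median of -0.27, and 12 fell with CD200Fc. Of the 69 genes with a promoter window, the YY1 motif stood in 8 of the 42 that fell from NG to HG and in 0 of the 27 others. It lay before the start in Mrpl36 (at -31) and Mrps11 (at -108). In Mrps18a, Mrps27, Mrpl35, Mrpl37, Mrpl42 and Mrps24 it lay after the start, at positions 12 to 37. Among the 27 is Mrpl53, which was not tested and holds the Ets motif. The Ets motif stood in 14 of 42 and 12 of 27, and the NRF1 motif in 8 of 42 and 5 of 27. These are counts without a test.

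In the authors' deposited table, 47 of the 77 genes were lower and 0 higher in HG than in NG, 46 of them also lower in the fit used here. Of all 15372 genes listed there, 2443 were lower in HG than in NG. In the authors' deposited table, 3 were lower and 1 higher in HG+CD200Fc than in HG, the same 4 genes as here. Of the 15372 listed genes, 1705 were lower in that comparison. In NG+CD200Fc against NG 0 of the 77 passed, and 0 of the 15372 were lower.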

How the data were processed

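RNA of 12 libraries was depleted of ribosomal RNA and sequenced as paired reads, per the labels' protocols. The authors deposited raw counts per gene for each library and, in a separate table, log2 fold changes with p-values. Alignment tools and the build GRCm38 are named in the submitters' processing notes. The sources used here give no annotation release or strand setting. The members and lists were chosen with earlier results of these data known, and the 4 structural groups (stalk, exit tunnel, central protuberance, small subunit head) after the values were seen.

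From the 55774 lines, 287 repeated gene IDs were dropped. Genes were filtered with filterByExpr, scaled by TMM and fitted over all 12 libraries with the quasi-likelihood test of edgeR 4.0.16 (R 4.3.3), with Benjamini-Hochberg adjustment over 19182 genes within each of 5 contrasts and a threshold of 0.05. The estimated biological coefficient of variation was 0.0908. CPM (counts per 1e+06) use TMM library sizes, and RPKM use exon lengths of GENCODE M21 (GRCm38), which held 99.5% of the IDs. DESeq2 1.42.0 and limma 3.58.1 (voom) served as alternatives, with other scalings, filters, a block on replicate number and each library left out in turn. The fit was tested on simulated data. Named genes were, per pairwise contrast, the 8 lowest and 8 highest of those past the threshold (mean CPM 1 or more), those that passed against the main direction, the 3 smallest p where fewer than 3 passed, the 4 highest and 4 lowest RPKM per subunit, genes whose place differs from their name, genes not tested, and 3 per related list. Genes of the structural groups, neighbours and overlaps are named in addition.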

Additional observations from a re-analysis of the deposited data

Results flagged for a closer look

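The change from normal to high glucose differed with CD200Fc, by the interaction term of edgeR at an adjusted p under 0.05, for 1 of 77 genes of the mitochondrial ribosome and 7 of the related lists, beside 3.62% of all genes tested above 0 and 3.58% below. The 7 were 1 of 14 translation factors, 3 of 32 assembly and rRNA factors, 1 of 20 tRNA synthetases and 2 of 9 regulators, with 0 of 78 cytosolic ribosomal protein genes and 0 of 78 nuclear respiratory chain genes. The difference is given on the log2 scale as the change with CD200Fc minus that without it, in groups of 3 libraries. For Mrpl9 it was 0.32 (adjusted p = 0.0267), from -0.38 without to -0.06 with CD200Fc. C1qbp, a matrix protein needed for ribosome assembly, had 0.39 (adjusted p = 0.000909): it was at 210.1, 213 and 211 CPM in NG, 173, 166 and 185 in HG, and 228, 223 and 227 in HG+CD200Fc. Pprc1, a coactivator of nuclear genes for mitochondria, had 0.38 (adjusted p = 0.0147), with 159.6, 179 and 178 CPM in HG+CD200Fc against 108, 127 and 119.6 in HG.

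For the elongation factor gene Tsfm it was 0.37 (adjusted p = 0.0342), and for the tRNA synthetase gene Aars2 0.35 (adjusted p = 0.0397). The RNA helicase gene Dhx30 had 0.29 (adjusted p = 0.0219), the transcription factor gene Yy1 0.28 (adjusted p = 0.0369) and the RNA-binding factor gene Grsf1 0.25 (adjusted p = 0.0426). All 8 differences were positive. Of the 8 values without CD200Fc, all were negative, from -0.40 (Tsfm) to -0.03 (Yy1). With CD200Fc, Dhx30, C1qbp, Aars2, Yy1 and Pprc1 were above 0. All 8 differences share the HG libraries, so they are not independent of each other. The call of Mrpl9 was lost in some of the fits with a library left out, as given above. The genes of the related lists were not followed in the alternative fits, so how far their calls rest on single libraries was not tested.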

How the results depend on the processing

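The count of falls from NG to HG was 43 to 55 in 9 other fits (scaling, filter, tool, block, trend removed, groups fitted) and 28 to 57 when 1 library was left out, with 0 rises in each. The fit with a replicate block gave 53, and 25 of the 49 genes passed in each of the 21 fits. With CD200Fc in both groups the count of 18 was 28 with the replicate block, 12 to 28 over the 9 other fits and 2 to 28 with 1 library left out. With 1 library left out the share of all genes that fell was 9.26% to 14.8% without CD200Fc. It was 0.422% to 5.8% with CD200Fc in both groups. In the 9 other fits these shares were 6.98% to 16.4% and 2.58% to 6.22%. For HG+CD200Fc against HG the 3 falls became 7 with the replicate block (9.56% of all genes tested fell) and 6 with the length and GC trend removed (10.4%). With 1 library left out they were 0 to 5 (5.76% to 8.11%). Rises there were 1 to 2. For NG+CD200Fc against NG the 0 falls became 1 with no filter. The interaction had 1 gene above 0 past the threshold in the fit reported. It had 2 with upper quartile scaling, 3 with no filter, 2 with the DESeq2 test, 3 with limma voom and 2 with the replicate block, and 0 to 5 with 1 library left out. Over all genes tested these counts were 692, 742, 985, 1041 and 903, and 466 to 850 with 1 library left out. The 0 lower genes of the interaction became 1 with a stricter filter (4.97% of all genes tested), 1 with DESeq2 (3.96%) and 1 with the replicate block (4.27%). They were 0 to 1 with 1 library left out. The cause was not tested, except that leaving out a library leaves fewer samples. Among named genes, only those of the mitochondrial ribosomal set were followed through the alternatives, and those of the related lists were not. Of the values followed that passed, 0 changed sign and 112 lost the threshold in an alternative. Of those that did not pass 39 gained it, and 3281 values kept their side. Some that did not pass changed sign, such as Mrps18b (-0.35 to 0.01) and Mrps36 (-0.44 to 0.01) from NG to HG. Pairing by replicate number was not taken, since not every same-number pair of libraries had residuals correlated over 0.1: 8 of 18 did (-0.17 to 0.39, median 0.05), against 7 of 36 pairs with different numbers (median -0.02), and 6 of 12 libraries correlated best with their own number. Mrpl53, at 2 reads, was too low to test.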
